A study of Homo sapiens with 9 samples.

Results

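A divergent transcript, named with DT after the neighbouring gene, is a long noncoding RNA (lncRNA) that starts close to the promoter of a protein-coding gene and runs the other way on the opposite strand. The deposited table of normalized read counts held 588 lncRNAs named in this way among 62710 genes, and the 233 whose mean across the 9 libraries reached 10 were analysed here, each beside its partner, the coding gene whose name comes before DT. Of the remaining DT transcripts, 290 had a mean above 0 and below 10 and 65 were listed at 0 in every library. Just inside the limit were FBN1-DT, CAMTA1-DT and ZBTB44-DT, with means of 10.02, 10.06 and 10.13, and just outside it were PELP1-DT, CKAP2-DT and TOLLIP-DT, with means of 9.86, 9.8 and 9.71.

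As background, most active mammalian promoters with many CG dinucleotides recruit RNA polymerase II in both directions. Transcription away from the coding gene usually ends early, because early polyadenylation sites and a lack of U1 snRNP binding lead to cleavage, and the RNA is then degraded by the nuclear exosome. The RNAs that escape this, and carry a poly(A) tail, are the ones annotated as DT genes and seen in poly(A)-selected libraries.

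The cells were A375R, a human melanoma line, derived from A375, that resists PLX4032 (an inhibitor of mutant BRAF) and is kept in medium with PLX4032. They were treated with R4VPL3-1, the full PROTAC-like molecule that links a binder of the ubiquitin ligase RNF4 to a recruiter of the VHL ligase, with VHL-r, the VHL-binding moiety alone, or with DMSO, the solvent. Both compounds were given at 10 µM for 2 h, and the control libraries are labelled WT, with no dose, and are called DMSO here after the study's methods. Each treatment had 3 libraries, described as independent biological repeats of 1 cell line, and p-values therefore measure the spread between these repeats.

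The whole reads recovered from the table summed to between 26435568 and 32085626 in a library. Of the 12 melanocyte and melanoma markers checked, SOX10, MITF, DCT, S100B, S100A1, CSPG4, MCAM and PRAME were at 584 normalized counts or more in every library, MLANA and MIA were at 0 in all 9, TYR was at 2.14 or less, and PMEL was between 20.9 and 36.8. Leukocyte markers summed to between 8.56 and 26.9 normalized counts, and endothelial markers to between 18 and 32.6. The keratinocyte markers summed to between 1915 and 2305. KRT10 was at 1673 to 1942, KRT14 at 224 to 365, KRT5 at 11.3 to 24.2 and KRT1 at 0 to 1. Fibroblast markers summed to between 950 and 1958. Of these, COL1A1 was at 729 to 1635, LUM at 95.6 to 164, DCN at 68.9 to 163 and PDGFRA at 18.7 to 32.1. The part of all these markers in the results was not tested. In bulk RNA, fewer cells that use a gene and less RNA per cell cannot be told apart.

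All 233 DT transcripts lay on the opposite strand from their partner in GENCODE 44. The gap between the 5′ ends of the 2 genes had a median of 75 bases, with quartiles of -70 and 145, where a gap below 0 means that the ends overlap. It was between 0 and 1 kb in 160 pairs, below 0 in 68 and above 1 kb in 5, among them LRFN5-DT at 1887 bases and MRPL20-DT at 1802 bases. The lowest gap was -173374 bases and the highest 63385 bases. In 61 pairs an exon of the DT covered part of an exon of the partner on the other strand, and the libraries were strand-specific and counted by strand.

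DT transcripts were much less abundant than their partners. The median DT had a mean of 36.84 normalized counts over the 9 libraries, 68 were under 20, and 48 exceeded 100. Per kilobase of exon the median DT was at 14.49 and the median partner at 201.47 normalized counts. Within a pair, the DT stood at a median of 7.47% of its partner per kilobase, with quartiles of 1.94% and 21.2%. The DT was above its partner per kilobase in 17 pairs, such as PCCA-DT at 187.52 against 55.42 normalized counts per kilobase, and EMSY-DT at 124.72 against 62.91.

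**Figure D1:**
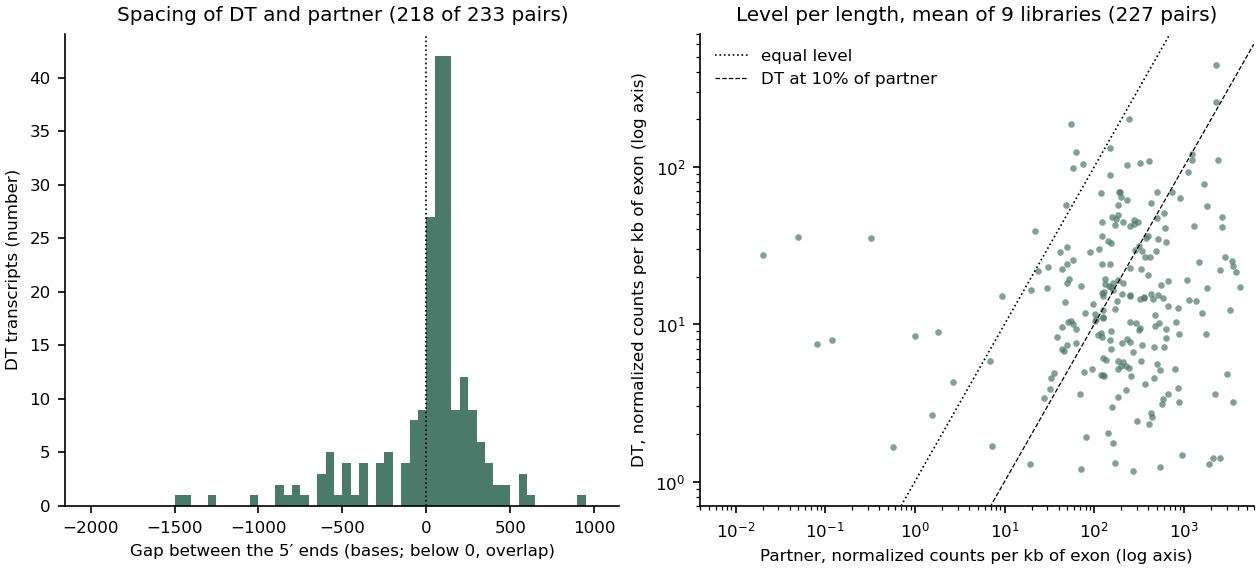
Left, histogram of the gap in bases between the 5′ ends of DT and partner (x axis, below 0 where they overlap, without the few pairs beyond the axis), with the number of pairs on the y axis. Right, normalized counts per kilobase of exon, mean of 9 libraries, of the partner (x) and the DT (y), both on log axes, for the pairs with a partner above 0; most points lie under the dotted line of equal level and around or under the dashed line at 10%.

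The most abundant DT transcripts were RIPK2-DT, SUCLG2-DT, SLC12A2-DT and COX10-DT, with means of 834, 764, 734 and 574 normalized counts. Partners were tested, with a mean of at least 10, in 217 of the 233 pairs. Of the 16 other partners, 6 were listed at 0 in every library, including RNASEH1 and ZNF8, and 5 had over 50% of their exon bases under another gene on the same strand, where reads may not be assigned to either gene.

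RefSeq start sites on GRCh38.p14 were matched for 185 DT transcripts and 199 partners. The windows below are the 250 bases before the partner's start, printed 5′ to 3′ on the partner's strand. They are shown for 5 pairs that the results turn on: HK2, INSIG1, ZFAND2A, WDR5B and COX10. In each, the response of the DT and that of the partner were called different in at least 1 comparison. COX10-DT had higher counts under both compounds. Capitals run from the first base of the DT, which is read from the other strand, to the base before the partner's start. They cover 140 bases for HK2 (chr2:74833877-74834126, plus strand), 220 for INSIG1 (chr7:155297628-155297877, plus), 178 for ZFAND2A (chr7:1160197-1160446, minus), 144 for WDR5B (chr3:122416063-122416312, minus) and 46 for COX10 (chr17:14069254-14069503, plus).
HK2: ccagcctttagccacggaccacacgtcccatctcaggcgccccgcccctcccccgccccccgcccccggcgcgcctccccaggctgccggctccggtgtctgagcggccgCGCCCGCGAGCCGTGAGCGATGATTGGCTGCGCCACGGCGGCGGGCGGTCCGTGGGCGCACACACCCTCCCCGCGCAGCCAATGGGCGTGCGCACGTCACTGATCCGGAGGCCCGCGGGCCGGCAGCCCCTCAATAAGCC
INSIG1: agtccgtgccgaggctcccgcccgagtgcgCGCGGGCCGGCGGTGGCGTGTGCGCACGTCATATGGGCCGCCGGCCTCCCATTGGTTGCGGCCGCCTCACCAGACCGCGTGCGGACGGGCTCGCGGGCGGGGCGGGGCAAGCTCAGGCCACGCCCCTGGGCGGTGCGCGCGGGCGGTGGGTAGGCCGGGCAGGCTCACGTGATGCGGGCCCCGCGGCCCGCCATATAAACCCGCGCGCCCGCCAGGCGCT
ZFAND2A: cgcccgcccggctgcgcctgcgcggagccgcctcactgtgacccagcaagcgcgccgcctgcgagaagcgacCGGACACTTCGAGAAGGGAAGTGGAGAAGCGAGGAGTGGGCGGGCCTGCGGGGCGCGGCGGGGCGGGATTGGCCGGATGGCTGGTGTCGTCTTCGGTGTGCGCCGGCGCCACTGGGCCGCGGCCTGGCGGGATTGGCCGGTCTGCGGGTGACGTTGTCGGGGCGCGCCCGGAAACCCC
WDR5B: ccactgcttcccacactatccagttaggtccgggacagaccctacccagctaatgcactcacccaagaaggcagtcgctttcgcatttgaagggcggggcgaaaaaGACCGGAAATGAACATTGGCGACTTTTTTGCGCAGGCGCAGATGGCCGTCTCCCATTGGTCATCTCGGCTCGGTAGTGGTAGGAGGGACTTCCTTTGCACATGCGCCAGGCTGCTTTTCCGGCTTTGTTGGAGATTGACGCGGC
COX10: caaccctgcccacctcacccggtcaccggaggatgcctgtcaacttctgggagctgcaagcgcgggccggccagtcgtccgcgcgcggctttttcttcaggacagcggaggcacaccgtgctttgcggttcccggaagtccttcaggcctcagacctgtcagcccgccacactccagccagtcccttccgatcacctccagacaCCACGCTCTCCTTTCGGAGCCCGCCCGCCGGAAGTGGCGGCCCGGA

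Of the 5 motifs searched on both strands, the INSIG1 window held CACGTG (the E-box) 55 bases before the start. It also held TATAAA (the core promoter motif) 27 bases before the start, and the other 4 windows held none of the 5. The heat shock element was searched only as the core GAANNTTC, which reads the same on both strands. Other arrangements of this element were not searched. The ZFAND2A window holds TTCGAGAA, with TTC before GAA. This was read from the printed letters and has no share over all windows beside it. Over the 300-base windows that also include 50 bases after the start, TATAAA was in 4.02% of the 199 partner windows, 3.78% of the 185 DT windows and 11.5% of 35116 windows of all genes. CACGTG was in 9.05%, 8.11% and 7.26%, TGACGTCA (CRE) in 4.02%, 3.24% and 1.85%, TGACTCA (AP-1) in 1.51%, 2.16% and 4.95%, and GAANNTTC (a heat shock element core) in 3.02%, 4.32% and 6.77%. The TATAAA, AP-1 and GAANNTTC shares were lower, and the CRE and CACGTG shares higher, in windows of DT pairs than in all windows, which was not tested. The median share of G and C was 67.3% in the partner windows, 69% in the DT windows and 58.7% in all windows. A match is only a run of letters in a window.

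VHL-r against DMSO asks what the VHL-binding moiety alone did. More DT transcripts were called lower than higher: SH3TC2-DT, HK2-DT, MOCS2-DT and LRFN5-DT were among those that fell, and COX10-DT, ING2-DT and TMEM161B-DT among those that rose. limma on log2(normalized count + 1) was fitted to the 15230 genes whose mean reached 10, and a Benjamini-Hochberg adjusted p up to 0.05 was called. It gave 5 DT transcripts higher and 21 lower. That is 2.15% and 9.01% of the 233, beside 10.3% higher and 9.51% lower among all genes tested. The share called lower was near that of all genes, and the share called higher was below it. The median log2 fold change was -0.10 over the DT transcripts and -0.00452 over all genes, and 42.5% of DT transcripts were above 0.

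SH3TC2-DT, whose partner encodes an adaptor of Schwann cell membrane traffic, was at 453, 457 and 440 normalized counts in DMSO, 280, 300 and 263 in VHL-r, and 209, 234 and 256 in R4VPL3-1. Each library with a compound was below each DMSO library. Its log2 fold change was -0.68 (SE 0.0943, limma adjusted p = 1.93e-05) in VHL-r against DMSO.

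MOCS2-DT, beside a subunit gene of molybdopterin synthase, was at 151, 143 and 144 in DMSO, 95.1, 83 and 98.3 in VHL-r and 115, 127 and 113 in R4VPL3-1. The VHL-r libraries were the lowest and those of R4VPL3-1 lay between the other groups. It fell by 0.66 on the log2 scale in VHL-r (SE 0.13, limma adjusted p = 0.000816), and its change of -0.30 in R4VPL3-1 against DMSO was not called (limma adjusted p = 0.104). The difference between the compounds, 0.36, was not called either (95% interval 0.09 to 0.63, limma adjusted p = 0.251).

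The largest falls called in VHL-r were those of TRMT61A-DT (-1.19), NFE2L1-DT (-0.94), LRFN5-DT (-0.93), LRP8-DT (-0.77) and CRIM1-DT (-0.70), followed by SH3TC2-DT, MOCS2-DT, HK2-DT (-0.65), ZNF778-DT (-0.64) and SLC17A6-DT (-0.54), all as log2 fold changes. TRMT61A-DT was a low transcript, at 9.08, 10.8 and 21.3 in DMSO and 6, 4.2 and 5.12 in VHL-r, and its adjusted p of 0.0338 by limma became 0.193 without DMSO replicate 3, the highest library, and 0.0524, 0.103 and 0.0616 without DMSO replicate 2 or VHL-r replicates 2 or 3. NFE2L1-DT was not called without DMSO replicate 2 (0.0727) or VHL-r replicate 1 (0.0967), LRP8-DT without DMSO replicate 3 (0.0653) or VHL-r replicate 3 (0.0556), and CRIM1-DT without DMSO replicates 1 (0.0661) or 2 (0.0565) or VHL-r replicate 2 (0.0587). The rises were those of ING2-DT (0.82), GOT1-DT (0.81), ZNF594-DT (0.63), COX10-DT (0.43) and TMEM161B-DT (0.41), and ZNF594-DT was not called without DMSO replicates 1 (0.0503) or 2 (0.0792).

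R4VPL3-1 against DMSO asks what the full molecule did. The falls included LRFN5-DT, DPH6-DT, SH3TC2-DT and HK2-DT, and the rises SAP30-DT, H3-3A-DT, GOT1-DT, ZNF594-DT and COX10-DT. limma called 20 DT transcripts higher and 17 lower, 8.58% and 7.3% of the 233, beside 13.1% higher and 11.8% lower among all genes tested, so both shares were below the background. Among the called DT transcripts the median absolute log2 fold change was 0.68, and 9 changed 2-fold or more. The median over all DT transcripts was 0.0178, and over all genes -0.00629.

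LRFN5-DT, beside a gene of a neuronal adhesion protein, was at 58.1, 86.6 and 77.1 normalized counts in DMSO, 42, 37.8 and 33.8 in VHL-r and 25.2, 21.9 and 28.9 in R4VPL3-1. The 3 groups did not overlap, and R4VPL3-1 was the lowest. It was 2.82-fold lower than DMSO in R4VPL3-1 (SE 0.213 on the log2 scale, limma adjusted p = 1.81e-05) and 1.91-fold lower in VHL-r (SE 0.213, limma adjusted p = 0.00312). The difference between the compounds was -0.57 (95% interval -1.01 to -0.12) and was not called (limma adjusted p = 0.295).

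COX10-DT, whose partner makes an enzyme of heme A synthesis for cytochrome c oxidase, was at 408, 467 and 504 in DMSO, 621, 649 and 579 in VHL-r and 679, 622 and 635 in R4VPL3-1. Both compounds were above DMSO with no overlap. It rose by 0.43 in VHL-r (SE 0.0817, limma adjusted p = 0.000629) and by 0.49 in R4VPL3-1 (SE 0.0817, limma adjusted p = 0.000109), and the compounds differed by 0.07 (95% interval -0.10 to 0.24). In the pair test described below, COX10-DT exceeded COX10 in response to R4VPL3-1 by 0.39 (limma adjusted p = 0.00819, and 0.123 without DMSO replicate 1). In VHL-r the pair difference was 0.33 (limma adjusted p = 0.0347, and as high as 0.301 without DMSO replicate 1).

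GOT1-DT, beside the gene of the cytosolic aspartate aminotransferase, was at 18.2, 22.6 and 36.5 in DMSO, 43, 39.9 and 50.2 in VHL-r and 77.5, 61.7 and 48.2 in R4VPL3-1. DMSO was the lowest group, and the 2 compounds overlapped. Its rise was 1.28 in R4VPL3-1 (SE 0.249, limma adjusted p = 0.000573) and 0.81 in VHL-r (SE 0.249, limma adjusted p = 0.0242, which passed 0.05 without DMSO replicate 1, at 0.127, DMSO replicate 2, at 0.0801, VHL-r replicate 1, at 0.0575, or VHL-r replicate 3, at 0.085). SAP30-DT, beside a gene of the SIN3 corepressor complex, was at 10.9, 11.8 and 17.2 in DMSO, 14, 13.7 and 19.5 in VHL-r and 33.6, 32.8 and 35.3 in R4VPL3-1. Only the R4VPL3-1 libraries stood apart. It rose by 1.31 over DMSO (SE 0.281, limma adjusted p = 0.00142), and its difference of 1.08 from VHL-r was not called (95% interval 0.49 to 1.67, limma adjusted p = 0.0535).

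The other large rises called in R4VPL3-1 against DMSO were those of H3-3A-DT (1.31), HNRNPD-DT (1.15), PSMD7-DT (1.07), ZNF132-DT (0.96), ZNF594-DT (0.91), ING2-DT (0.78) and GSK3B-DT (0.70), and the other large falls those of CD44-DT (-1.36), TOX-DT (-0.90), CRIM1-DT (-0.79), TNFRSF10A-DT (-0.74), HK2-DT (-0.63) and MRPL20-DT (-0.56), as log2 fold changes. Several rest on few reads: CD44-DT, beside the gene of a hyaluronan receptor, was at 22.7, 19.7 and 10.1 in DMSO and 4.67, 4.97 and 8.56 in R4VPL3-1, and PSMD7-DT had a mean of 10.6. The calls of ZNF594-DT, CRIM1-DT, HK2-DT and MRPL20-DT held without any 1 of the 6 libraries compared. Without R4VPL3-1 replicate 1, the adjusted p rose to 0.0583 for H3-3A-DT, 0.0964 for HNRNPD-DT, 0.207 for GSK3B-DT, 0.0879 for PSMD7-DT, 0.0599 for CD44-DT and 0.0866 for TOX-DT. Without DMSO replicate 1 it was 0.127 for ZNF132-DT, 0.237 for GSK3B-DT, 0.0882 for CD44-DT and 0.0571 for TNFRSF10A-DT. Without DMSO replicate 2 it was 0.0521 for ING2-DT, 0.0804 for GSK3B-DT, 0.197 for PSMD7-DT, 0.0696 for CD44-DT and 0.109 for TOX-DT, and without DMSO replicate 3 it was 0.0663 for PSMD7-DT and 0.0807 for TOX-DT. R4VPL3-1 replicate 2 mattered likewise for ZNF132-DT (0.0827), GSK3B-DT (0.0798), PSMD7-DT (0.109), CD44-DT (0.0524) and TOX-DT (0.0502), and R4VPL3-1 replicate 3 for ZNF132-DT (0.0654), PSMD7-DT (0.0826) and TNFRSF10A-DT (0.0559).

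**Figure D2:**
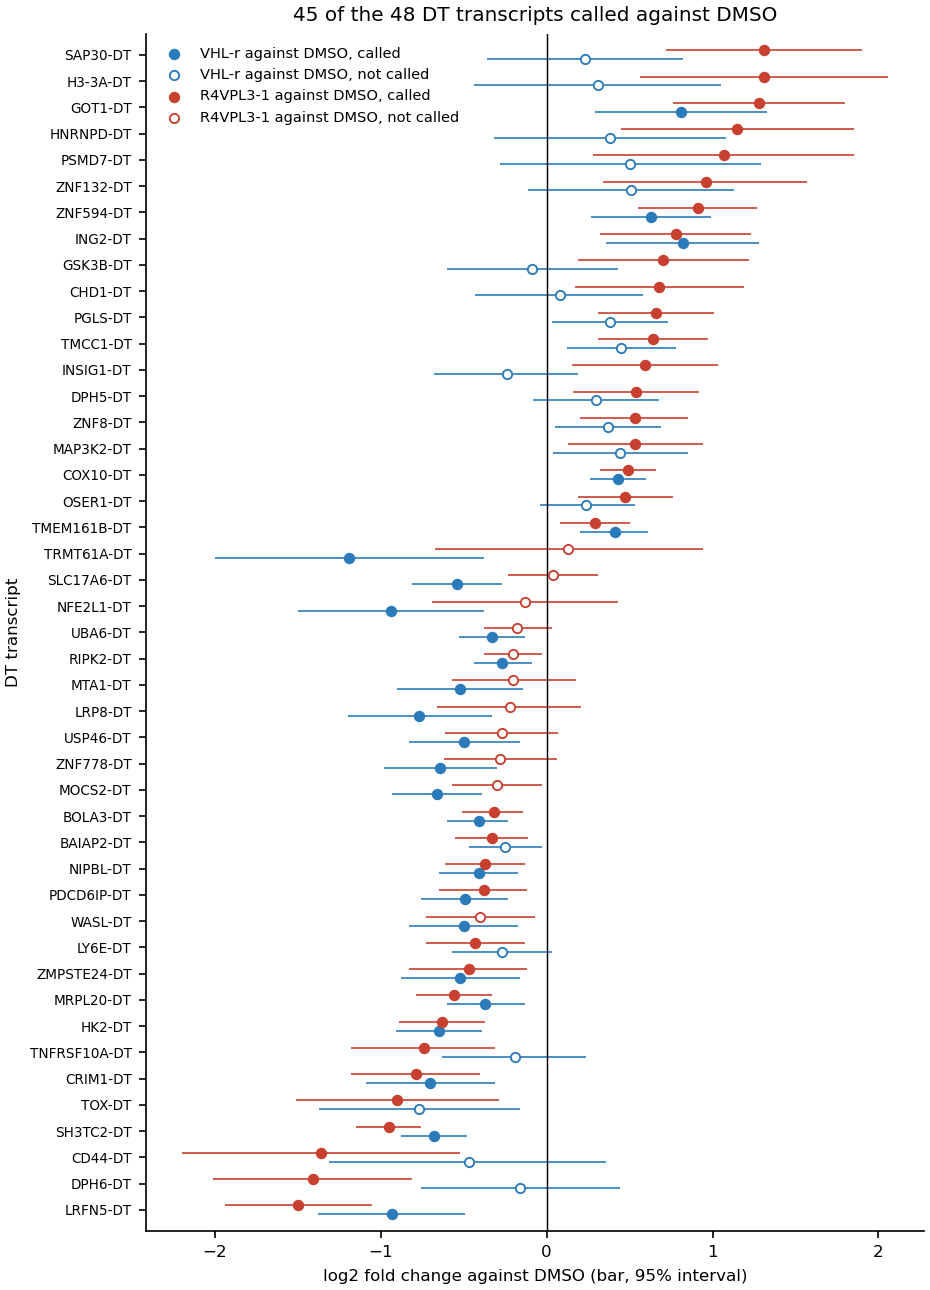
log2 fold change against DMSO (x axis, with its 95% interval as a bar) of 45 of the 48 DT transcripts called in either comparison with DMSO (y axis, sorted by R4VPL3-1), with VHL-r in blue and R4VPL3-1 in red, filled where limma called the change and open where not. SH3TC2-DT, HK2-DT and LRFN5-DT were called lower and COX10-DT, ING2-DT and ZNF594-DT higher under both compounds.

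Both comparisons share the DMSO libraries. Called lower in both were SH3TC2-DT, LRFN5-DT, HK2-DT, CRIM1-DT, MRPL20-DT, PDCD6IP-DT, NIPBL-DT, BOLA3-DT and ZMPSTE24-DT, among others, and called higher in both were COX10-DT, GOT1-DT, ZNF594-DT, ING2-DT and TMEM161B-DT. Some of these calls were lost without 1 library. ZMPSTE24-DT was not called in R4VPL3-1 without R4VPL3-1 replicates 1 (0.197), 2 (0.0572) or 3 (0.055) or DMSO replicates 2 (0.144) or 3 (0.121), nor in VHL-r without VHL-r replicates 1 (0.21) or 3 (0.0742) or DMSO replicates 2 (0.119) or 3 (0.102). NIPBL-DT was not called in R4VPL3-1 without R4VPL3-1 replicate 1 (0.0661) or DMSO replicates 2 (0.0669) or 3 (0.128), nor in VHL-r without VHL-r replicate 3 (0.0742) or DMSO replicate 3 (0.0918). PDCD6IP-DT depended on DMSO replicate 1 in both comparisons (0.154 in R4VPL3-1 and 0.0533 in VHL-r without it) and on R4VPL3-1 replicate 3 (0.103), and BOLA3-DT on R4VPL3-1 replicate 2 (0.0557). TMEM161B-DT was not called in R4VPL3-1 without R4VPL3-1 replicates 1 (0.148) or 3 (0.0897) or DMSO replicates 1 (0.177) or 2 (0.142), and MRPL20-DT not in VHL-r without VHL-r replicates 1 (0.0528), 2 (0.067) or 3 (0.0525) or DMSO replicate 1 (0.15). SH3TC2-DT, LRFN5-DT, HK2-DT and COX10-DT were called in both comparisons whichever library was left out. For HK2-DT the log2 fold change was -0.65 in VHL-r and -0.63 in R4VPL3-1. For MRPL20-DT it was -0.37 and -0.56, for CRIM1-DT -0.70 and -0.79, and for ING2-DT 0.82 and 0.78. In all, 48 of the 233 DT transcripts were called in at least 1 comparison and 185 in none. Of all genes tested, 13.1% were called higher and 11.8% lower in R4VPL3-1 against DMSO alone. Their share called in at least 1 comparison was not counted.

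DT transcripts had low counts, and the SE of their changes was larger than that of all genes. The median SE of their log2 fold changes was 0.242, against 0.0805 over all genes tested. Among the 48 DT transcripts with a mean of at least 100, 29.2% were called with R4VPL3-1 and 29.2% with VHL-r, each against DMSO, beside 27.8% and 22.4% of all genes at that level. Under a mean of 100 the shares were 12.4% and 6.49% for DT transcripts, beside 17.3% and 13.1% for all genes. At that level the median SE in R4VPL3-1 against VHL-r was 0.276 for DT transcripts and 0.275 for all genes. Why fewer DT transcripts were called there was not tested. Of the 14 called at the higher level in VHL-r, 12 were lower and 2 higher.

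R4VPL3-1 against VHL-r, at the same dose and time, compares the full molecule with its VHL-binding part. limma called SLC17A6-DT and INSIG1-DT higher and DPH6-DT lower. These 2 higher and 1 lower compare with 1.14% higher and 0.729% lower of all genes tested, or 0.858% and 0.429% of the DT transcripts. The median difference was 0.0882 over the DT transcripts and -0.00557 over all genes, and 65.2% of DT transcripts were above 0, beside 58.6% of the 2316 lncRNAs tested, whose median was 0.0519, and 47.6% of all genes, a count over transcripts of the same 6 libraries that was not tested.

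SLC17A6-DT, named for the vesicular glutamate transporter gene next to it, was at 154, 149 and 129 normalized counts in DMSO, 95.1, 102 and 98.3 in VHL-r and 147, 135 and 162 in R4VPL3-1. The VHL-r libraries were below all others, while those of DMSO and R4VPL3-1 overlapped. It fell by 0.54 from DMSO to VHL-r (SE 0.128, limma adjusted p = 0.00437) and R4VPL3-1 exceeded VHL-r by 0.58 (SE 0.128, limma adjusted p = 0.0159), and R4VPL3-1 differed from DMSO by 0.04 (95% interval -0.23 to 0.31). SLC17A6 itself had 1.97 normalized counts in DMSO replicate 2 and was listed at 0 in the 8 other libraries.

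DPH6-DT, beside the gene of an enzyme of diphthamide synthesis, was at 22.7, 33.5 and 32.5 in DMSO, 33, 18.9 and 27.6 in VHL-r and 9.34, 9.95 and 11.8 in R4VPL3-1. Every R4VPL3-1 library was below every other library. The difference was -1.25 from VHL-r (SE 0.288, limma adjusted p = 0.0215) and -1.41 from DMSO (SE 0.288, limma adjusted p = 0.000887), and DPH6 itself was at -0.08 and -0.03, neither called. INSIG1-DT is described with its partner below.

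None of the 3 calls held in every fit that left out a library, and DESeq2 on the recovered reads gave adjusted p-values of 0.0276 for SLC17A6-DT, 0.0713 for DPH6-DT and 0.0806 for INSIG1-DT. Without VHL-r replicate 1 the adjusted p was 0.0594 for SLC17A6-DT, 0.13 for DPH6-DT and 0.0635 for INSIG1-DT, and without R4VPL3-1 replicate 1 it was 0.0615, 0.0928 and 0.057. SLC17A6-DT also passed 0.05 without VHL-r replicate 2 (0.0507) or R4VPL3-1 replicate 3 (0.0676), DPH6-DT without VHL-r replicate 3 (0.0972) or R4VPL3-1 replicate 2 (0.0712), and INSIG1-DT without VHL-r replicates 2 (0.173) or 3 (0.137) or R4VPL3-1 replicates 2 (0.248) or 3 (0.0678).

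Whether a DT and its partner responded differently was tested directly, with limma on the within-library difference of their log2 values, over 904 opposite-strand pairs of an lncRNA and a coding gene, 217 of them DT pairs. In R4VPL3-1 against DMSO, 32 DT pairs were called different (14.7%, beside 16.2% of the 904), in VHL-r against DMSO 26 (12%, beside 14.5%), and in R4VPL3-1 against VHL-r 4 (1.84%, beside 2.43%). The shares of DT pairs were near those of the whole set, which includes them. The DT was the lower of the 2 in its response in 16 of the 32 pairs and in 18 of the 26.

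HK2-DT fell while HK2, the hexokinase that starts glycolysis, rose. HK2-DT was at 195, 181 and 204 normalized counts in DMSO, 107, 133 and 130 in VHL-r and 118, 123 and 133 in R4VPL3-1. HK2 was at 6642, 5824 and 5910 in DMSO, 6900, 6750 and 7021 in VHL-r and 9153, 8690 and 7766 in R4VPL3-1. The DT libraries of both compounds lay below DMSO, and those of HK2 above it. The log2 fold changes in R4VPL3-1 against DMSO were -0.63 for HK2-DT (limma adjusted p = 0.000702) and 0.48 for HK2 (limma adjusted p = 1.75e-06), and the pair differed by -1.11 (SE 0.149, limma adjusted p = 2.99e-07). In VHL-r the values were -0.65, 0.17 and -0.82. Between the compounds HK2 rose by 0.31 (limma adjusted p = 0.00279), while HK2-DT differed by 0.02 (95% interval -0.24 to 0.28) and the pair difference of -0.29 was not called (limma adjusted p = 0.488).

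BAIAP2-DT and BAIAP2, an adaptor between membranes and actin, also parted. BAIAP2-DT was at 266, 261 and 278 in DMSO, 214, 215 and 247 in VHL-r and 192, 213 and 238 in R4VPL3-1. BAIAP2 was at 1498, 1457 and 1456 in DMSO, 1949, 1999 and 2000 in VHL-r and 2263, 2275 and 2042 in R4VPL3-1. The DT was lower and the partner higher than DMSO in all 6 libraries with a compound. The pair difference was -0.90 in R4VPL3-1 (SE 0.131, limma adjusted p = 1.16e-06) and -0.68 in VHL-r (SE 0.131, limma adjusted p = 0.000203). The fall of BAIAP2-DT alone, 0.33 in R4VPL3-1, was called (limma adjusted p = 0.0265) but not without DMSO replicate 1 (0.0582), 2 (0.0539) or 3 (0.0788) or R4VPL3-1 replicate 1 (0.141) or 2 (0.0662).

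WDR5B, a relative of the chromatin protein WDR5, fell, and its DT was not called. WDR5B was at 299, 346 and 353 normalized counts in DMSO, 167, 132 and 128 in VHL-r and 176, 146 and 161 in R4VPL3-1. WDR5B-DT was at 80.8, 79.7 and 82.1 in DMSO, 87.1, 76.7 and 86 in VHL-r and 120, 94.5 and 96.3 in R4VPL3-1. The partner was below DMSO in each library with a compound, while the DT overlapped with DMSO in VHL-r and was above it in R4VPL3-1. WDR5B fell by 1.22 in VHL-r and 1.04 in R4VPL3-1 on the log2 scale. The DT was at 0.04 (95% interval -0.27 to 0.35) and 0.34 (95% interval 0.03 to 0.65, limma adjusted p = 0.101), and the pair differences of 1.26 and 1.39 were called (limma adjusted p = 4.04e-07 and 3.14e-08). In WDR5B-DT 47.5% of the exon bases lie over exons of the other strand.

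ZFAND2A, a heat-shock gene whose protein works at the proteasome, rose in R4VPL3-1, and its DT was not called. ZFAND2A was at 471, 491 and 487 in DMSO, 480, 484 and 478 in VHL-r and 1700, 1301 and 914 in R4VPL3-1. ZFAND2A-DT was at 102, 97.4 and 116 in DMSO, 76, 98.7 and 108 in VHL-r and 101, 106 and 112 in R4VPL3-1. The R4VPL3-1 libraries of the partner stood far above the rest, and the DT groups overlapped. Against VHL-r the partner rose by 1.39 (limma adjusted p = 7.07e-07), the DT differed by 0.19 (95% interval -0.12 to 0.51), and the pair difference was -1.20 (SE 0.189, limma adjusted p = 3.44e-05). It was the only 1 of the 4 pairs called in this comparison that was also called in every fit without 1 library.

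INSIG1, the endoplasmic reticulum protein that restrains sterol synthesis, rose stepwise, and its DT rose in R4VPL3-1. INSIG1 was at 848, 881 and 921 in DMSO, 1297, 1437 and 1471 in VHL-r and 3442, 2987 and 2757 in R4VPL3-1. INSIG1-DT was at 33.6, 52.1 and 42.6 in DMSO, 39, 33.6 and 33.8 in VHL-r and 55.1, 77.6 and 61 in R4VPL3-1. The 3 groups of INSIG1 did not overlap, while for the DT only R4VPL3-1 stood above the others. Against DMSO, INSIG1 rose by 1.79 and its DT by 0.59 (limma adjusted p = 0.0452, but 0.201 without DMSO replicate 1, 0.0793 without DMSO replicate 3, 0.201 without R4VPL3-1 replicate 2 and 0.0659 without R4VPL3-1 replicate 3), and the pair difference was -1.20 (SE 0.225, limma adjusted p = 9.63e-05). Against VHL-r the rises were 1.12 and 0.83, and the pair difference of -0.29 (95% interval -0.74 to 0.17) was not called (limma adjusted p = 0.717).

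**Figure D3:**
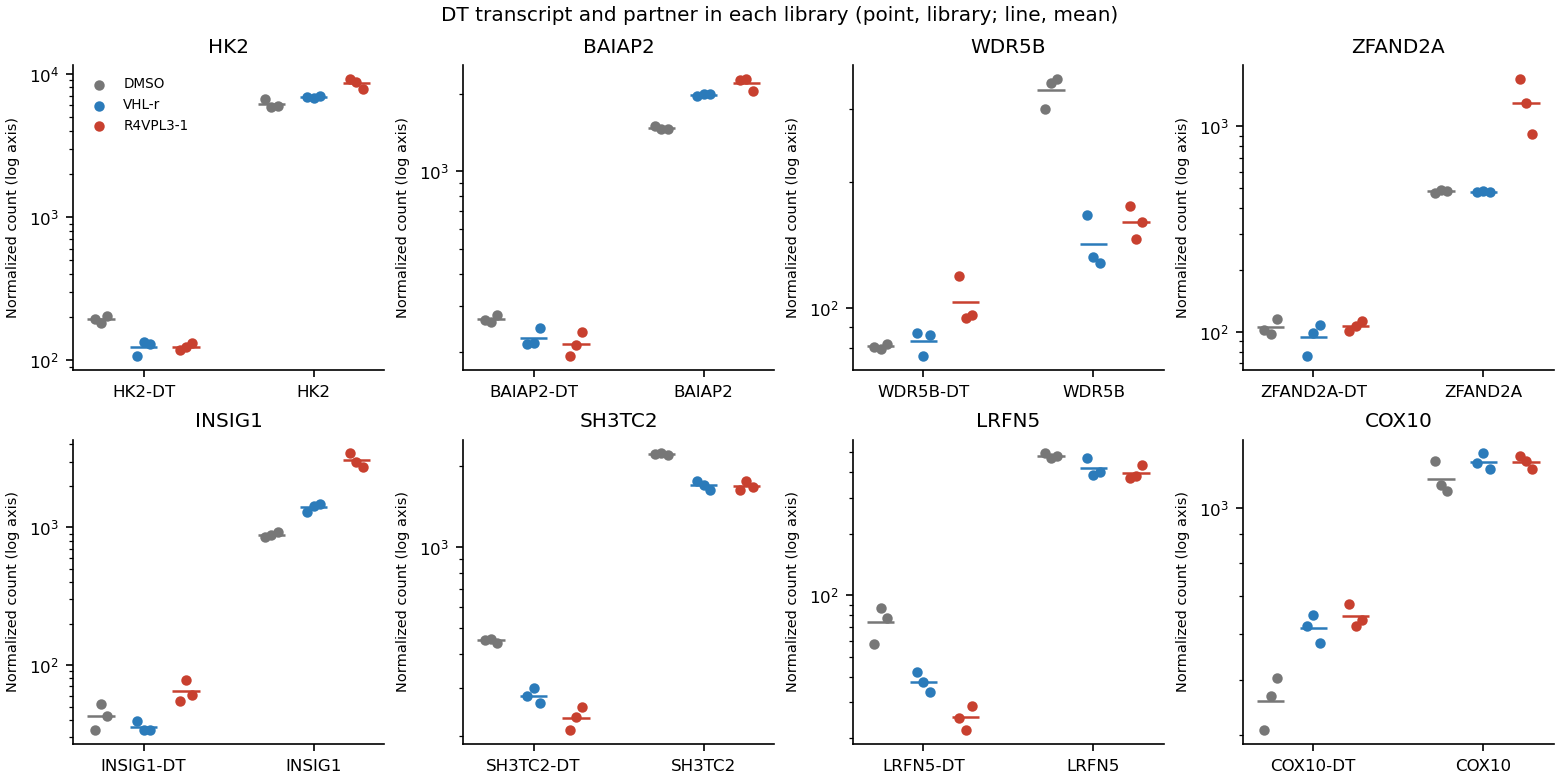
Normalized counts (log axis, scaled for each panel) of 8 DT transcripts and their partners in each library, grey for DMSO, blue for VHL-r and red for R4VPL3-1, with a line at the mean of the 3 libraries. HK2-DT and BAIAP2-DT lie below DMSO where their partners lie above it, and ZFAND2A and INSIG1 rise more in R4VPL3-1 than their DT transcripts.

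The other 3 pairs called in R4VPL3-1 against VHL-r were those of DPH6 (pair difference -1.17, limma adjusted p = 0.0254), GSK3B, a kinase of Wnt and insulin signalling (0.91, limma adjusted p = 0.0184) and DNAJC3, a co-chaperone of the endoplasmic reticulum (0.84, limma adjusted p = 0.0159). GSK3B-DT was at 62, 50.4 and 37.9 normalized counts in VHL-r and 112, 81.6 and 68.5 in R4VPL3-1, and DNAJC3-DT at 41, 48.3 and 55.3 and at 107, 77.6 and 61. In both, R4VPL3-1 replicate 1 was the highest library, and without it the adjusted p was 0.265 and 0.315. The DPH6 pair reached 0.151 without that library. The GSK3B pair also passed 0.05 without R4VPL3-1 replicate 2 (0.093) or VHL-r replicates 2 (0.0715) or 3 (0.154), the DNAJC3 pair without R4VPL3-1 replicate 2 (0.0793) or VHL-r replicates 1 (0.0992) or 2 (0.0609), and the DPH6 pair without R4VPL3-1 replicate 2 (0.0633) or VHL-r replicates 1 (0.135) or 3 (0.106).

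The LRFN5 and SH3TC2 pairs parted with the larger fall in the DT. LRFN5 fell by 0.28 in R4VPL3-1, with a pair difference of -1.22 (limma adjusted p = 7.87e-05), and SH3TC2 fell by 0.40 beside 0.95 for its DT (pair difference -0.56, limma adjusted p = 0.000511). In VHL-r the LRFN5 pair difference was -0.73 (limma adjusted p = 0.0207, and 0.164, 0.0708, 0.0596 and 0.0719 without DMSO replicates 2 or 3 or VHL-r replicates 1 or 3), and that of SH3TC2, -0.29, was not called (limma adjusted p = 0.0963). NUP50, a nuclear pore gene, fell by 0.37 in R4VPL3-1 with NUP50-DT at 0.24 and not called (pair difference 0.61, limma adjusted p = 0.00138). In VHL-r the NUP50 pair differed by 0.51 (limma adjusted p = 0.00896, and 0.113 without DMSO replicate 1 or 0.0605 without VHL-r replicate 2).

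Where the partner moved and the DT was not called, further pairs were called different. In VHL-r, KDM7A, a histone demethylase gene, rose by 0.56 with KDM7A-DT at -0.23 (pair difference -0.79, limma adjusted p = 0.00558), and ZNF691 fell by 0.71 with ZNF691-DT at -0.14 (pair difference 0.57, limma adjusted p = 0.00704, and 0.0557 without VHL-r replicate 2). NECTIN1, a cell adhesion gene, rose by 0.40 in VHL-r and 0.28 in R4VPL3-1, with pair differences of -0.66 and -0.70 (limma adjusted p = 0.0453 and 0.0306, and as high as 0.172 and 0.13 without DMSO replicate 2). Where the DT fell and the partner was not called, the pairs of NIPBL, a cohesin loader, and PDCD6IP, an adaptor of membrane budding, differed by -0.49 and -0.46 in R4VPL3-1 (limma adjusted p = 0.00455 and 0.0197) and by -0.47 and -0.56 in VHL-r (limma adjusted p = 0.00823 and 0.00603). The PDCD6IP pair was not called in R4VPL3-1 without DMSO replicate 1 (0.0976) or R4VPL3-1 replicates 1 (0.0518) or 3 (0.063), nor the NIPBL pair in VHL-r without DMSO replicate 3 (0.0698) or VHL-r replicate 3 (0.0555). Where the DT rose and the partner was not called, the pair of PGLS, an enzyme of the pentose phosphate pathway, differed by 0.67 in R4VPL3-1 (limma adjusted p = 0.00276, and 0.0546 without DMSO replicate 1).

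Other pairs moved together. OSER1, a gene named for its response to oxidative stress, was at 2140, 2175 and 2083 in DMSO and 3278, 3095 and 2885 in R4VPL3-1, and OSER1-DT was at 95.3, 111 and 124 and at 145, 156 and 156. Neither gene's groups overlapped. The rises were 0.53 for OSER1 and 0.47 for OSER1-DT (limma adjusted p = 0.0138, and 0.0784 without DMSO replicate 1), with a pair difference of -0.06 (95% interval -0.37 to 0.25).

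Of the 35 DT transcripts called in R4VPL3-1 against DMSO with a tested partner, 12 had a partner called the same way, 19 a partner that was not called, and 4 a partner called the opposite way. The 4 were HK2 and BAIAP2, with the DT lower, and HNRNPD, an RNA-binding protein gene, and CHD1, a chromatin remodeller gene, with the DT higher. HNRNPD-DT was at 10.9, 11.8 and 11.2 in DMSO and 35.5, 18.9 and 26.8 in R4VPL3-1, while HNRNPD was at 13971, 13564 and 13370 and at 12105, 11816 and 11613. Its pair difference was 1.35 (limma adjusted p = 0.00373), and that of CHD1 was 0.91 (limma adjusted p = 0.00578, and 0.0938 without DMSO replicate 1). The call of CHD1-DT itself (limma adjusted p = 0.0458) was lost without DMSO replicates 1 (0.255) or 2 (0.0744) or R4VPL3-1 replicates 1 (0.142), 2 (0.0642) or 3 (0.0877), and by DESeq2 (0.129), and that of HNRNPD-DT without R4VPL3-1 replicate 1 (0.0964). In VHL-r against DMSO, 25 called DT transcripts had a tested partner, of which 3 were called the same way, 21 were not called, and 1, HK2, was called the opposite way. A partner that was not called does not show that it differed from its DT, which the pair test addresses. The pair test called 24 of the 35 and 16 of the 25, beside 32 and 26 of all 217 DT pairs. The 35 and 25 were chosen by the change of the DT, which is part of the pair difference, so higher shares are built in.

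Read from the 217 tested partners, 33 were called higher and 31 lower in R4VPL3-1 against DMSO, beside 13.1% and 11.8% of all genes tested. Of the DT transcripts of the 33, 21 were above 0, with a median log2 fold change of 0.17 beside 0.38 for the partners, and 6 were called higher and 2 lower. Of the DT transcripts of the 31, 21 were below 0, with a median of -0.18 beside -0.28, and 6 were called lower and 2 higher. In VHL-r against DMSO the DT transcripts of the 27 partners called higher had a median of -0.12, with 12 above 0, and those of the 23 called lower a median of -0.14, with 16 below 0. Of all genes tested, 10.3% were called higher and 9.51% lower in that comparison. Over all 217 pairs, the changes of DT and partner had a Pearson correlation of 0.20 in R4VPL3-1 against DMSO, 0.14 in VHL-r against DMSO and 0.16 in R4VPL3-1 against VHL-r, and a Spearman correlation of 0.20, 0.16 and 0.17. Both members of a pair come from the same libraries, so this is a description. The sign was the same in 54.8%, 55.8% and 57.1% of DT pairs, beside 56.9%, 53.9% and 53.3% of the 687 other pairs.

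**Figure D4:**
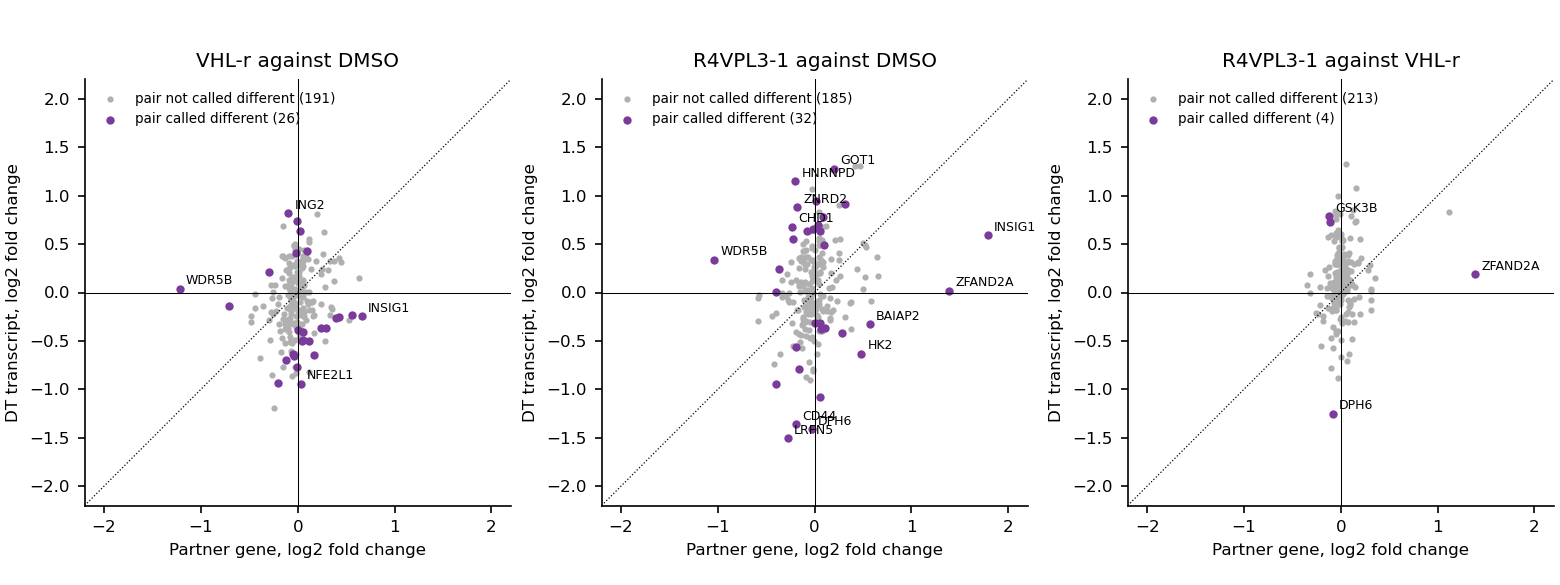
log2 fold change of the partner (x) and of the DT (y) in 217 pairs for each comparison, with pairs called different by limma in purple and the line of equal change dotted. The cloud is taller than wide in each panel, and INSIG1, ZFAND2A and WDR5B lie far from the line.

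Spacing was set beside the responses as a description. The 63 tested pairs whose 5′ ends overlap had the same sign in 65.1% in R4VPL3-1 against DMSO, and the 154 pairs with ends apart in 50.6%. In VHL-r against DMSO the shares were 55.6% and 55.8%, and in R4VPL3-1 against VHL-r 54% and 58.4%. Pairs called different numbered 11 of the 63 and 21 of the 154 for R4VPL3-1 relative to DMSO, 5 and 21 for VHL-r, and 3 and 1 in R4VPL3-1 against VHL-r.

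Partners with a ZNF name, zinc finger genes, made up 13 of the 233, a group formed after the values were seen. In R4VPL3-1 against DMSO, ZNF594-DT, ZNF132-DT and ZNF8-DT were called higher and no DT of the group lower, while 4 of the 10 tested partners were called higher and 3 lower. Over all features these shares were 8.58% higher and 7.3% lower of the 233 DT transcripts, and 13.1% and 11.8% of all genes, and nothing is read from a group of this size. ZNF594-DT was at 51.8, 47.2 and 76 normalized counts in DMSO, 82.1, 90.3 and 95.2 in VHL-r and 109.25, 102 and 113 in R4VPL3-1. The groups did not overlap, and its rise in R4VPL3-1 was 0.91 (SE 0.173, limma adjusted p = 0.000442). ZNF8-DT, whose partner was listed at 0, rose by 0.53 (limma adjusted p = 0.0155, and 0.0827 without DMSO replicate 2 or 0.0536 without R4VPL3-1 replicate 3). In VHL-r against DMSO, ZNF594-DT was called higher and ZNF778-DT lower.

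Genes of the machinery that ends and degrades upstream transcripts were examined as lists, beside 24.9% of all genes called for R4VPL3-1 relative to DMSO, 19.8% for VHL-r and 1.87% between the compounds. Of 15 tested genes of the nuclear exosome and its adaptors, ZCCHC8 (0.23) and ZFC3H1 (0.41) rose in R4VPL3-1 against DMSO and ZFC3H1 (0.27) in VHL-r, and the other members, among them the catalytic and core subunits, were not called. Of 7 genes of the cap-binding complex and the Restrictor, ZC3H4, the Restrictor subunit that stops transcription of short noncoding RNAs, fell by 0.68 in R4VPL3-1 and 0.66 in VHL-r (limma adjusted p = 4.73e-07 and 1.02e-06). Of 14 Integrator subunits, INTS6 (-0.35), INTS5 (-0.31) and INTS14 (-0.15) were lower in R4VPL3-1 and INTS6 (-0.28) in VHL-r. No member of these 3 lists was called in R4VPL3-1 against VHL-r. The calls against DMSO, 2 of 15, 1 of 7 and 3 of 14 with R4VPL3-1 and 1 of each list with VHL-r, were not more frequent than among all genes.

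Of 17 cleavage and polyadenylation genes, 4 rose and 3 fell in R4VPL3-1 against DMSO, where 13.1% of all genes rose and 11.8% fell. PCF11, the termination factor, rose by 1.06 and RBBP6 by 0.73, CSTF3 by 0.46 and CPSF6 by 0.12, while CSTF1 (-0.40), CLP1 (-0.31) and CPSF7 (-0.17) were lower. In VHL-r against DMSO, PCF11 (1.14), RBBP6 (0.70) and CSTF3 (0.42) rose, and CSTF1 (-0.20) and CPSF7 (-0.20) fell. CLP1 (-0.30) and CSTF1 (-0.20) were also lower in R4VPL3-1 than in VHL-r. Of 9 tested U1 snRNP proteins, SNRPD1 (-0.21) fell in R4VPL3-1 against DMSO, and of 12 genes of pausing and early elongation, CTR9 rose (0.28 in R4VPL3-1, 0.38 in VHL-r) and ELOA fell (-0.20 against DMSO and -0.16 against VHL-r in R4VPL3-1). The medians of these 6 lists lay between -0.0614 and 0.0423 in the 3 comparisons, and how these genes bear on DT transcripts was not tested.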

How the data were processed

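Poly(A)-selected, strand-specific RNA-seq of 9 A375R libraries was used. The authors aligned single reads to GRCh38 with STAR, counted them with htseq-count (reverse strand setting), and deposited the counts divided by DESeq2 (1.36.0) size factors, a normalized signal. In each library, 99.978% or more of its values above 0 lay within 0.0051 normalized counts of a whole number of reads. In VHL-r replicate 1 and R4VPL3-1 replicate 2 the size factors, 0.9993 and 1.0051, were so near 1 that low values alone do not show what 1 read is worth, and the edgeR and DESeq2 alternatives rest on reading it from values at all levels. The deposited values were tested with limma (3.58.1, R 4.3.3) on log2(value + 1), with trend, in a single-factor fit of all 9 libraries over 15230 genes, each with a mean of 10 or more. Pairs were fitted likewise on within-library differences, over pairs with 5′ ends within 5 kb and all DT pairs with a tested partner, whatever their distance. Fold changes on this scale understate changes of low genes. Scripts were tested on simulated data. Strand and exons came from GENCODE 44 by gene identifier and promoters from RefSeq (GRCh38.p14). Members and lists were chosen with earlier results of these data known. The rule for named genes took, per comparison, up to 10 called DT transcripts with the largest rise and fall, pairs called different, SLC17A6-DT, the 5 most abundant and those nearest the limit, and called list members, with further members named after their values were seen. Alternatives used edgeR (4.0.16), DESeq2 (1.42.0), other pseudocounts, filters, scalings and libraries left out. A few members that this rule takes are not reported here.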

Additional observations from a re-analysis of the deposited data

How the results depend on the processing

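No call of a DT transcript or pair changed its direction under any alternative; over the alternatives and left-out libraries, single calls held 1623 times and were lost 446 times. In R4VPL3-1 against DMSO the 20 higher, 17 lower and 32 pairs became 11, 12 and 19 with no filter on low values, 9, 12 and 17 with a mean of at least 50, and 7, 8 and 15 at an adjusted p of at most 0.01; DESeq2 on recovered reads called 9 higher and 11 lower, and edgeR 21 and 17. Leaving out 1 library gave 11 to 23 higher, 11 to 16 lower and 18 to 35 pairs. In VHL-r against DMSO the 5 higher, 21 lower and 26 pairs became 2, 9 and 14 at an adjusted p of at most 0.01, and DESeq2 called 4 and 15; leaving out 1 library gave 3 to 10 higher, 14 to 17 lower and 14 to 25 pairs. In R4VPL3-1 against VHL-r the 2 higher, 1 lower and 4 pairs became 1, 0 and 1 with no filter, 1 and 0 with a mean of at least 50, 0, 0 and 1 at an adjusted p of at most 0.01, and 1 and 0 with DESeq2; with edgeR they were 3 and 1, with the 6 libraries compared alone 6 pairs, and with starts within 1 kb 6 pairs. Leaving out 1 library gave 0 to 1 higher, 0 to 1 lower and 1 to 5 pairs. With a mean of at least 50 only 88 of the 233 DT transcripts were tested; for the other changes the cause was not tested. In all genes edgeR on the recovered reads called 2127 genes higher and 1730 lower for R4VPL3-1 relative to DMSO, 1593 and 1441 for VHL-r relative to DMSO, and 194 and 103 for R4VPL3-1 relative to VHL-r.

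Every fit without 1 library called 13 of the 37 DT transcripts and 12 of the 32 pairs of R4VPL3-1 against DMSO, 11 of 26 and 7 of 26 for VHL-r, and 0 of 3 and 1 of 4 in R4VPL3-1 against VHL-r. The most calls of R4VPL3-1 against DMSO were lost without DMSO replicate 2 or R4VPL3-1 replicate 1, 16 of 37 each.

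Deviations of same-numbered libraries correlated at -0.006 to 0.121, and those of differently numbered libraries of different treatments at -0.148 to 0.098. Whether the replicate numbers pair the libraries was not tested, and the main fit used no pairing. With a replicate block, 8 rather than 5 DT transcripts were called higher in VHL-r against DMSO, 6 rather than 4 pairs and 3 rather than 2 higher in R4VPL3-1 against VHL-r, and 21 higher, 18 lower and 32 pairs in R4VPL3-1 against DMSO. The median SE of DT transcripts was 0.242 at a median of 36.84 normalized counts, and whether depth limited their calls was not tested.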
